A study of Rattus norvegicus with 16 samples.

Results

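The nuclear-coded genes of oxidative phosphorylation in the ovary were described here across 4 control and 4 VCD input RNA libraries and in the m6A peak lists of both groups. They were the rows of the deposited gene table whose type was protein_coding alone and whose symbol began with Nduf, Uqcr, Atp5, Cox4i, Cox5, Cox6, Cox7 or Cox8, or was Sdha, Sdhb, Sdhc, Sdhd or Cyc1. This gave 95 rows with 91 symbols, of 22663 rows in all. The rule used names only and no measured value, but it was set with earlier results of these data known. Counted by symbol, 37 rows belonged to complex I, 4 to complex II, 10 to complex III, 19 to complex IV, 16 to complex V and 9 to assembly factors. The symbols Cox6b1, Uqcrb, Ndufa10l1 and Ndufv3 each stood on 2 rows on different chromosomes, and these are named by chromosome below. Atp5pb and Ndufs6 began with a listed prefix but had another type in the table, and were not counted.

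The libraries came from rat ovary, labelled CON for the control group, whose treatment the labels do not spell out, or VCD for the treated group, with 4 input libraries and 4 m6A immunoprecipitation libraries in each. VCD is 4-vinylcyclohexene diepoxide, an industrial epoxide that destroys the small follicles of the ovary. Poly(A) RNA was fragmented and part of it was pulled down with an antibody to m6A, N6-methyladenosine, the commonest internal modification of mRNA. The labels give no strain, age, dose or length of treatment. The series title speaks of mice, whereas the labels and the gene identifiers are those of rat. Each label numbers a rat, and replicates were taken as separate animals. The labels also carry a batch number from 1 to 4 that both groups share, so that VCD 1 and CON 1 are of one batch.

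Oxidative phosphorylation is carried out in the inner mitochondrial membrane. Complexes I and II pass electrons from NADH and succinate to ubiquinone, complex III passes them on to cytochrome c, and complex IV, cytochrome c oxidase, passes them to oxygen. Complexes I, III and IV pump protons, and complex V, ATP synthase, makes ATP from the gradient. Most subunits are coded in the nucleus and a few in mitochondrial DNA, so the enzymes are built from both genomes. In the ovary the oocyte relies on mitochondrial ATP, and the first step of steroid synthesis takes place in the mitochondria of steroidogenic cells.

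Nuclear genes of these complexes are known for promoters with binding motifs of NRF1, of the ETS factor GABPA and of YY1. Promoters of 300 bases, 250 before and 50 after each gene's start, were taken from RefSeq (build GRCr8), in which 78 of the 91 symbols had an entry. These letters were searched on both strands: GCGCA followed at once by its reverse complement TGCGC for NRF1, CCGGAAG for ETS factors, and AAGATGG followed at once by CGG for YY1. The NRF1 letters stood in 6 of the 78 promoters (7.69%), against 1.14% of all 19005 protein-coding promoters and 2.23% of the 2775 promoters of other genes that averaged 20 FPKM or more. FPKM are counts of sequenced fragments scaled to the length of the transcript and to the total of the library. The ETS letters stood in 21 of 78 (26.9%), against 11.2% of all promoters and 20.4% of those of other genes at 20 FPKM or more. The YY1 letters stood in 9 of 78 (11.5%), against 1.54% and 3.64%. At least 1 of the 3 stood in 31 of the 78 promoters, against 24.6% of the other genes at that level. In Ndufa2, Ndufa6, Ndufaf8 and Atp5pf the ETS and YY1 letters stood together, and in Atp5me the ETS and NRF1 letters, with no shared bases. All 9 YY1 matches lay on the gene's own strand, and their first base had a median position of 5, counting the first transcribed base as 1. A match is a description of letters, with no binding measured here.

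For each motif, 60 bases around the match are shown for 4 genes that hold it. For NRF1 these are the 4 with the highest level, and for the others they were picked from the genes that hold the letters. Levels of several of them follow. Each sequence runs 5′ to 3′ on the gene's strand in GRCr8, and 1 match is in capitals. Other matches in a window are not marked: Cox4i1 holds another ETS match, Ndufa11 another, overlapping NRF1 match, and Atp5pf its ETS match.
Atp5mc2 (NRF1, chr7:135678240-135678299, minus strand): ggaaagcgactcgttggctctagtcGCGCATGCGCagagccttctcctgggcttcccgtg
Atp5po (NRF1, chr11:44657508-44657567, minus strand): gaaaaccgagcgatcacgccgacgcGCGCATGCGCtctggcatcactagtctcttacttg
Ndufa11 (NRF1, chr9:1637492-1637551, plus strand): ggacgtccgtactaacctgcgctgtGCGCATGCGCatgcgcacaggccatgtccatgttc
Atp5me (NRF1, chr14:1464759-1464818, plus strand): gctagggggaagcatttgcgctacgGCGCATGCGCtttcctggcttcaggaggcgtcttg
Cox4i1 (ETS, chr19:65630353-65630412, plus strand): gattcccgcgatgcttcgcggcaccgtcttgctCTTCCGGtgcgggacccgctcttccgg
Sdhb (ETS, chr5:158547799-158547858, plus strand): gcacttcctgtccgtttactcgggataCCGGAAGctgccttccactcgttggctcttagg
Cox5b (ETS, chr9:46417796-46417855, plus strand): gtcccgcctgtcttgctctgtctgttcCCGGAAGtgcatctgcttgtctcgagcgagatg
Uqcrh (ETS, chr5:134790933-134790992, minus strand): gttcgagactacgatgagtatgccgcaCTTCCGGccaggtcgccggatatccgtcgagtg
Atp5pf (YY1, chr11:37375178-37375237, minus strand): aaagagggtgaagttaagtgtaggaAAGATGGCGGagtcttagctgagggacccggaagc
Ndufa6 (YY1, chr7:115750288-115750347, minus strand): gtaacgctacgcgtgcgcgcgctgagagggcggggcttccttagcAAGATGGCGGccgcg
Ndufa9 (YY1, chr4:161374141-161374200, minus strand): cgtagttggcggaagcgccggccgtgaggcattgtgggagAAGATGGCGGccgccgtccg
Ndufs7 (YY1, chr7:10110469-10110528, minus strand): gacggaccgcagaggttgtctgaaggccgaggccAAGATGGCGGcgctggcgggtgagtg

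The genes were among the most abundant in the ovary. The median of the 95 rows was 95.4 FPKM, the mean over the 8 input libraries being taken for each, against 8.95 FPKM for the 13290 other protein-coding genes that averaged 0.5 FPKM or more. A level of 100 FPKM or more was reached by 43 rows (45.3%), against 4.38% of those other genes. FPKM are scaled to transcript length, so genes were compared by level, but the levels of some rows are uncertain, as named below. Complex V had a median of 182 FPKM, complex II 178, complex IV 128, complex III 126 and complex I 71.6. Assembly factors, which help to build the complexes and are not part of them, had a median of 8.72 FPKM.

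**Figure D1:**
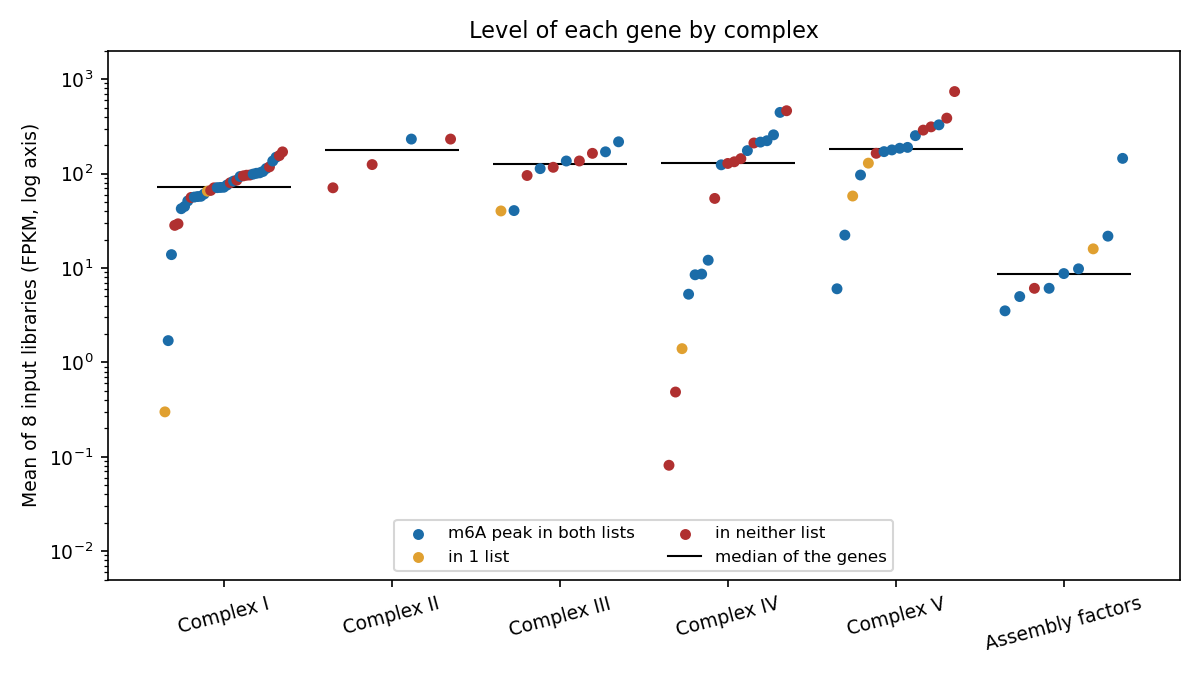
Mean level of each of the 95 rows over the 8 input libraries (FPKM, log axis) by complex, coloured by whether the gene had a listed m6A peak in both lists, in 1 list or in neither. The black lines are medians, at 71.6 FPKM in complex I and 182 in complex V, and the assembly factors lie lowest at 8.72.

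Complex I, NADH dehydrogenase, had its highest level in Ndufb4, an accessory subunit. Ndufb4 had 159, 174, 151 and 176 FPKM in CON 1 to CON 4 and 177, 169, 179 and 174 in VCD 1 to VCD 4. All VCD libraries lay inside or just above the range of CON. The 30 rows of accessory subunits, by symbol, had a median of 71.4 FPKM. Ndufab1, the mitochondrial acyl carrier protein, had 13.8 FPKM. Ndufa10l1 on chromosome 6 (0.299 FPKM) was the only row of the complex below the filter of 0.5 FPKM.

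Complex II, succinate dehydrogenase, is also an enzyme of the tricarboxylic acid cycle. Sdha, the flavoprotein, had a mean of 232 FPKM, and Sdhb, the iron-sulphur subunit, also 232. Their membrane anchors Sdhc and Sdhd had 125 and 70.7 FPKM. Sdhb varied more within the groups than any other of the 77 rows at 20 FPKM or more. It had 206, 276, 176 and 285 FPKM in CON 1 to CON 4 and 183, 281, 249 and 200 in VCD 1 to VCD 4. CON 2, CON 4 and VCD 2 were high, and CON 3 and VCD 1 were low, so that the groups overlapped fully. The SD within groups was 0.31 on the log2 scale, larger than that of 88.8% of the other protein-coding genes at 20 FPKM or more.

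Complex III was led by Uqcrh, the hinge protein, at 217 FPKM. Uqcrfs1, the Rieske iron-sulphur protein, had 164 FPKM, and Cyc1, cytochrome c1, had 136. Uqcrb, a small subunit next to the ubiquinone site, was counted on a row of 475 bases on chromosome 1 and on a row on chromosome 7, and how reads were shared between such near-identical rows is not known, so both levels are uncertain. On chromosome 1 Uqcrb had 122, 159, 145 and 140 FPKM in CON 1 to CON 4 and 154, 101, 164 and 103 in VCD 1 to VCD 4. The row on chromosome 7 had 39.1, 53.4, 39.2 and 41.3 FPKM in CON and 46.0, 28.6, 46.6 and 30.2 in VCD. On both rows VCD 2 and VCD 4 were the lowest of the 8 libraries. VCD 1 and VCD 3 lay within the range of CON, except that VCD 3 was above it on chromosome 1. VCD 2 and VCD 4 also had the highest ribosomal RNA levels, 56.9 and 51.2 FPKM summed, against 8.17 to 31.4 in the other 6 libraries, and its part in these values was not tested.

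In complex IV, which by symbol here includes Ndufa4 and Ndufa4l2, common and tissue-restricted forms stood far apart. Cox4i1, the common form of a regulatory subunit, had a mean of 463 FPKM and Cox6a1 445. Cox6b2, known from testis, had 12.1 FPKM, Cox4i2, known from lung, 8.62, and Ndufa4l2, known from hypoxic cells and from smooth muscle and pericytes, 8.47. Cox8b, a form of heart, skeletal muscle and brown fat, had 5.27 FPKM. Cox6a2 and Cox7a1, which are muscle forms, had 1.40 and 0.485 FPKM, and Cox8c, a testis form, had 0.0813. Cox7a1 and Cox8c were below the filter and were not tested.

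Complex V was led by Atp5f1b, the catalytic beta subunit, which was the highest of the 95 rows. Atp5f1b had 666, 801, 660 and 736 FPKM in CON 1 to CON 4 and 725, 784, 750 and 791 in VCD 1 to VCD 4. Atp5f1a, which forms the F1 head together with Atp5f1b, had 387 FPKM. The 3 genes for the same c subunit of the rotor ring differed in level: Atp5mc2 had 312 FPKM, Atp5mc3 185 and Atp5mc1 164. Atp5if1, the inhibitor of ATP synthase, had 178 FPKM. Atp5f1c, the gamma subunit, had only 22.3 FPKM. Its row spans 184899 bases, and 1 of its peaks spans 133744 bases of the genome, so its level and its peaks are uncertain. The same holds for Atp5md, whose row spans 308 bases, for Ndufv3 on chromosome 13 (327 bases) and for Cox6b1 on chromosome 2 (261 bases).

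The 13 subunits coded in mitochondrial DNA summed to 489 to 689 FPKM per library, against 9730 to 12061 FPKM for the 95 nuclear rows. Mt-co1, the catalytic subunit of complex IV, had 114 ± 19.5 FPKM in CON and 130 ± 30.1 in VCD (SD, 4 libraries each), below its nuclear partner Cox4i1 in all 8 libraries. The 13 genes made up only 0.119% (VCD 3) to 0.170% (CON 4) of the FPKM sum of a library. How their reads were aligned and counted is not known, so their level against nuclear genes is uncertain. With limma none of the 13 was called between VCD and CON, against 0.447% of all tested genes. An unadjusted p under 0.05 was found for 3 of the 13, all lower, against 14.6% of all tested genes. In value 12 of the 13 were lower in VCD, as were 9512 of all 14978 tested genes.

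The comparison of VCD with CON asks whether the toxicant changed the RNA of these genes. With limma on log2(FPKM + 1) and Benjamini-Hochberg adjustment over 14978 genes, 0 of the 92 tested rows were called at an adjusted p under 0.05. Of all tested genes 0.447% were called, with 0.107% higher and 0.34% lower in VCD. At an unadjusted p under 0.05 there were 5 rows, against 18.7% of all tested genes. They were 3 higher rows, against 4.12% of all tested genes, and 2 lower rows, against 14.6%. This count depended on single libraries: it was 0 without CON 1, 1 without CON 3 or without VCD 4, 3 without VCD 1 or without VCD 3, 8 without CON 2 and 10 without VCD 2. It was 2 with the batch number as a block and 15 with the libraries scaled to a common median. The authors' deposited table gives a p-value under 0.05 to 21 of the 95 rows (22.1%), against 15.7% of all rows, and all 21 were higher in VCD. Of all rows 7.04% had such a p-value and were higher. None of the 95 rows in the authors' deposited table had a q-value under 0.05, against 4.58% of all rows, and the smallest q-value was 0.0695, for Ndufa10l1 on chromosome 9. Most changes could be bounded: for 86 of the 92 rows the 95% interval of the change excluded 1.5-fold in either direction, as it did for 72.6% of all tested genes.

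Most of the values leaned one way. On the log2 scale 72 of the 92 rows were higher in value in VCD, with a median change of 0.09. Of all tested genes 36.5% were higher and the median was -0.06. Of the 3904 tested genes at 20 FPKM or more 51.6% were higher and the median was 0.01, whereas of the 77 rows at that level 66 were higher and the median was 0.10. By complex, 34 of 36 rows of complex I and 15 of 16 of complex V were higher in value, with medians of 0.12 and 0.10. Complex III had 7 of 10 higher (median 0.08), complex IV 10 of 17 (0.06) and complex II 2 of 4 (0.05). Assembly factors had 4 of 9 higher and a median of -0.04. The median standard error of a single gene was 0.09 on the same scale.

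**Figure D2:**
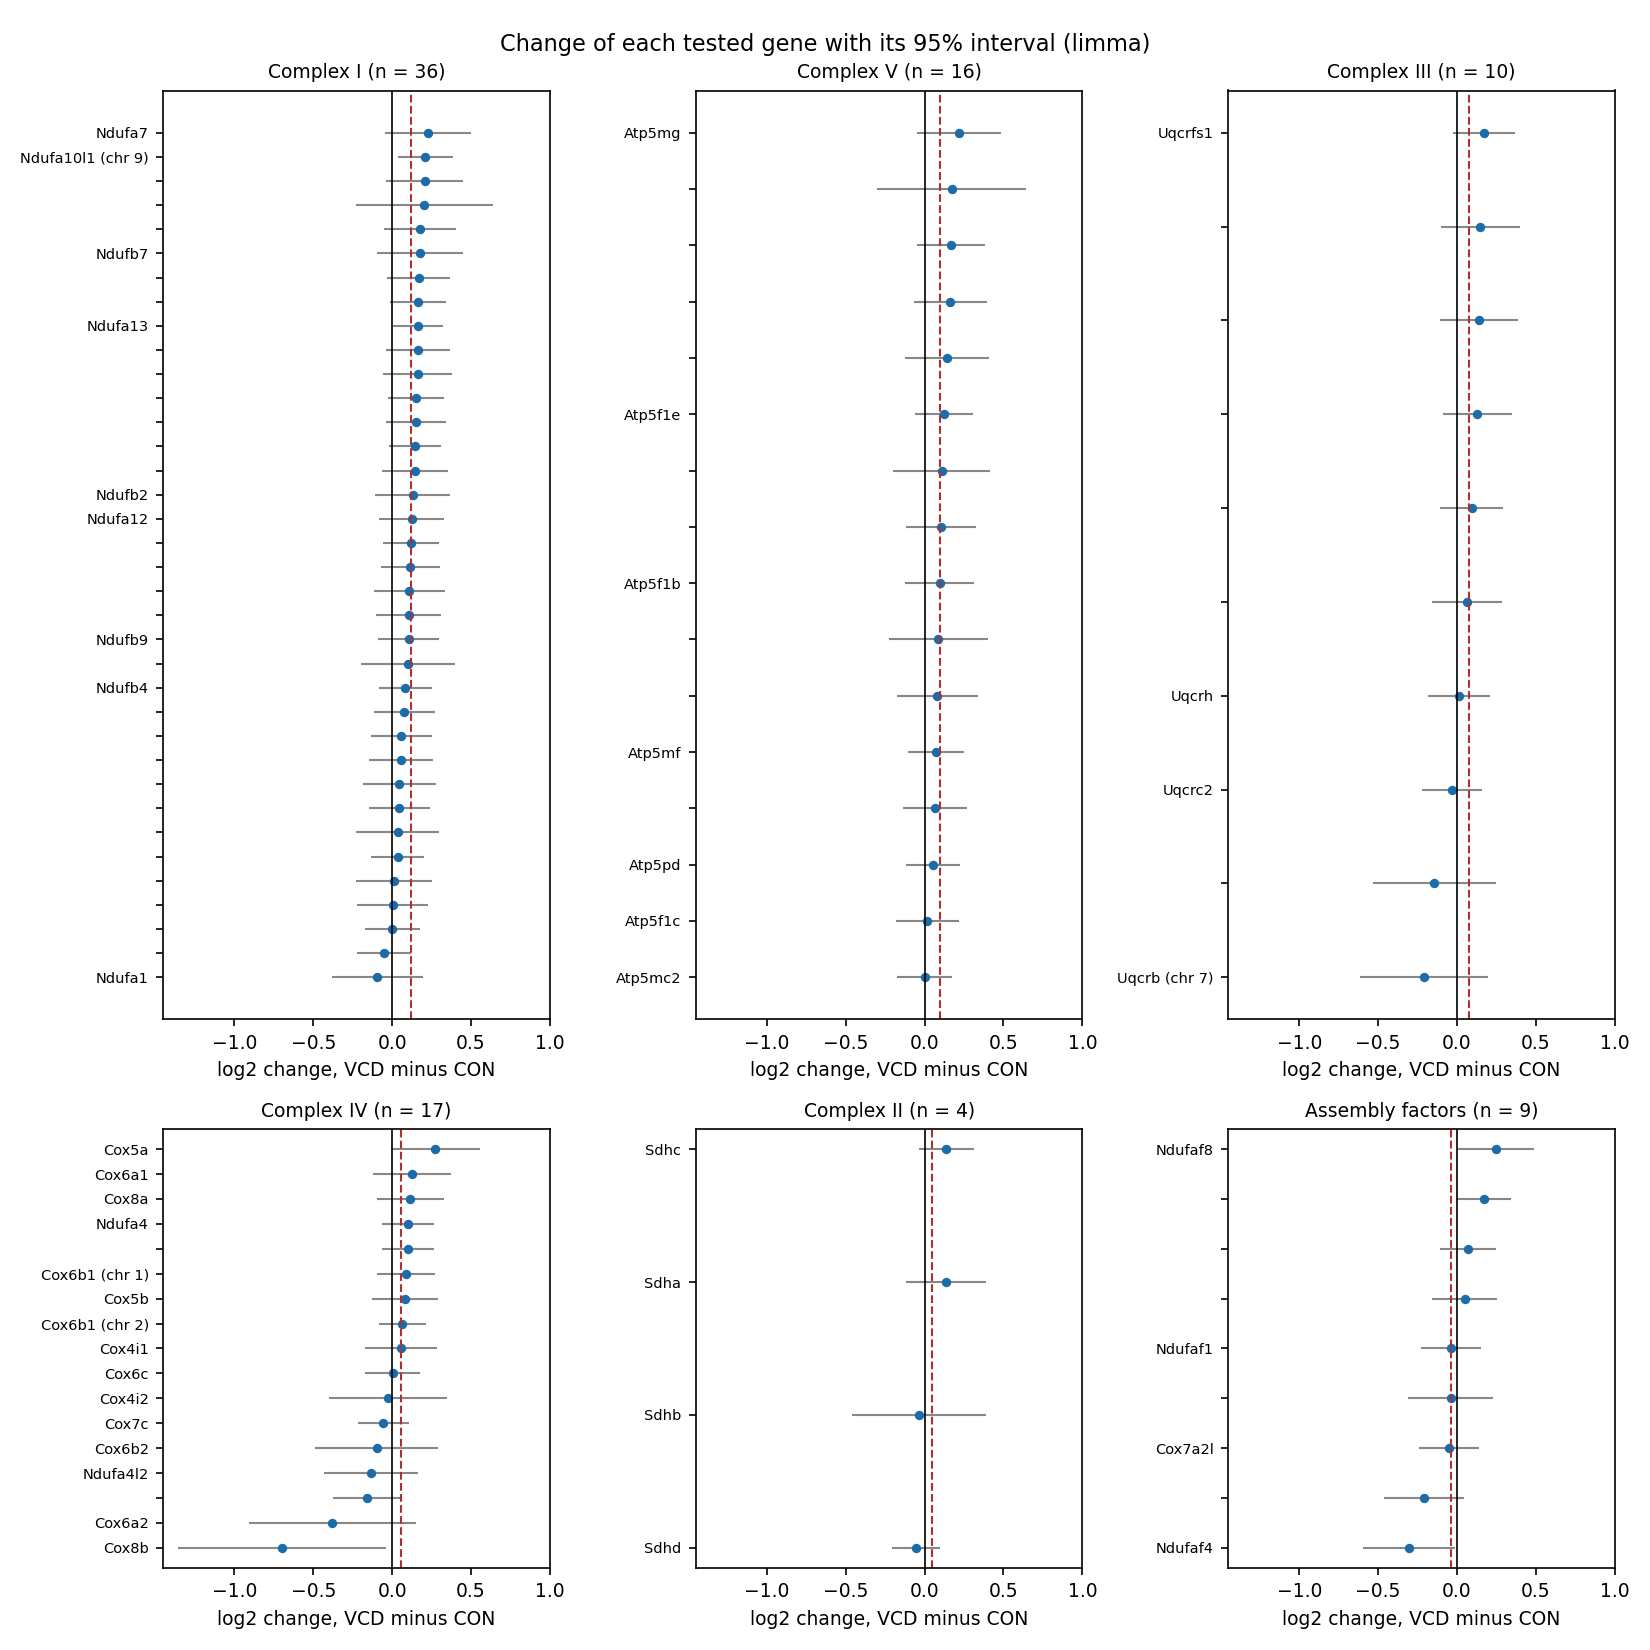
Log2 change of each of the 92 tested rows, VCD minus CON, from limma on 4 libraries in each group, with its 95% interval (grey lines) and the median of each complex (dashed). Genes picked by the naming rule are labelled. Most points of complexes I and V lie just right of 0, and none of the 92 rows was called.

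CON 3 carried much of this lean, and VCD 4 a smaller part. Of the 77 rows at 20 FPKM or more, 56 (72.7%) had their lowest value in CON 3 and 45 (58.4%) their highest in VCD 4. Among the 3600 other protein-coding genes at that level the shares were 12.7% and 23.0%. Among rows of 64 to 256 FPKM, 36 of 53 were lowest in CON 3, against 19.7% of 776 other genes of the same level, and 32 of 53 were highest in VCD 4, against 26.5%. The median deviation of the 92 rows from their own means was -0.17 in CON 3 and 0.12 in VCD 4, and between -0.05 and 0.07 in the other 6 libraries. Without CON 3 the median change fell to 0.04 and 61 of 92 rows were higher in value. Of all tested genes 39.1% were then higher, with a median of -0.05. Without VCD 4 the median change of the rows was 0.06, and 70 of 92 were still higher, against 35.4% and a median of -0.06 for all tested genes. Some other gene lists ran between the same libraries: glycolysis genes summed to 2076 FPKM in CON 3, their lowest, and 2876 in VCD 4, their highest, and mitochondrial antioxidants to 1086 and 1590. Others did not. Tricarboxylic acid cycle genes were lowest in CON 3 (1226 FPKM) but highest in VCD 3 (1503). Mitochondrial beta-oxidation genes ran from 913 in CON 1 to 1223 in VCD 3. Electron carriers and shuttles ran from 790 in CON 3 to 936 in CON 4. Smooth muscle markers were highest in VCD 4 (970.4 FPKM) but lowest in CON 2 (506). With CON 3 left out, the medians of complexes III, IV and V were 0.02, 0.01 and 0.03.

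Within batches the direction was not constant. The median difference of the 92 rows between the VCD and the CON library of the same number was 0.08 in batch 1, -0.08 in batch 2, 0.24 in batch 3 and 0.13 in batch 4. In batch 2 only 24 of 92 rows were higher in VCD, and in batch 3, which holds CON 3, 81 of 92 were. Complex I followed the same order, with 29, 7, 35 and 31 of its 36 rows higher in batches 1 to 4. With the batch number as a block, 0 of the 92 rows were called, and 31 of all tested genes in place of 67. Of the 92 rows, 12 were higher in VCD in all 4 batches, against 6.16% of all tested genes, and 3 were lower in all 4, against 20.2%.

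**Figure D3:**
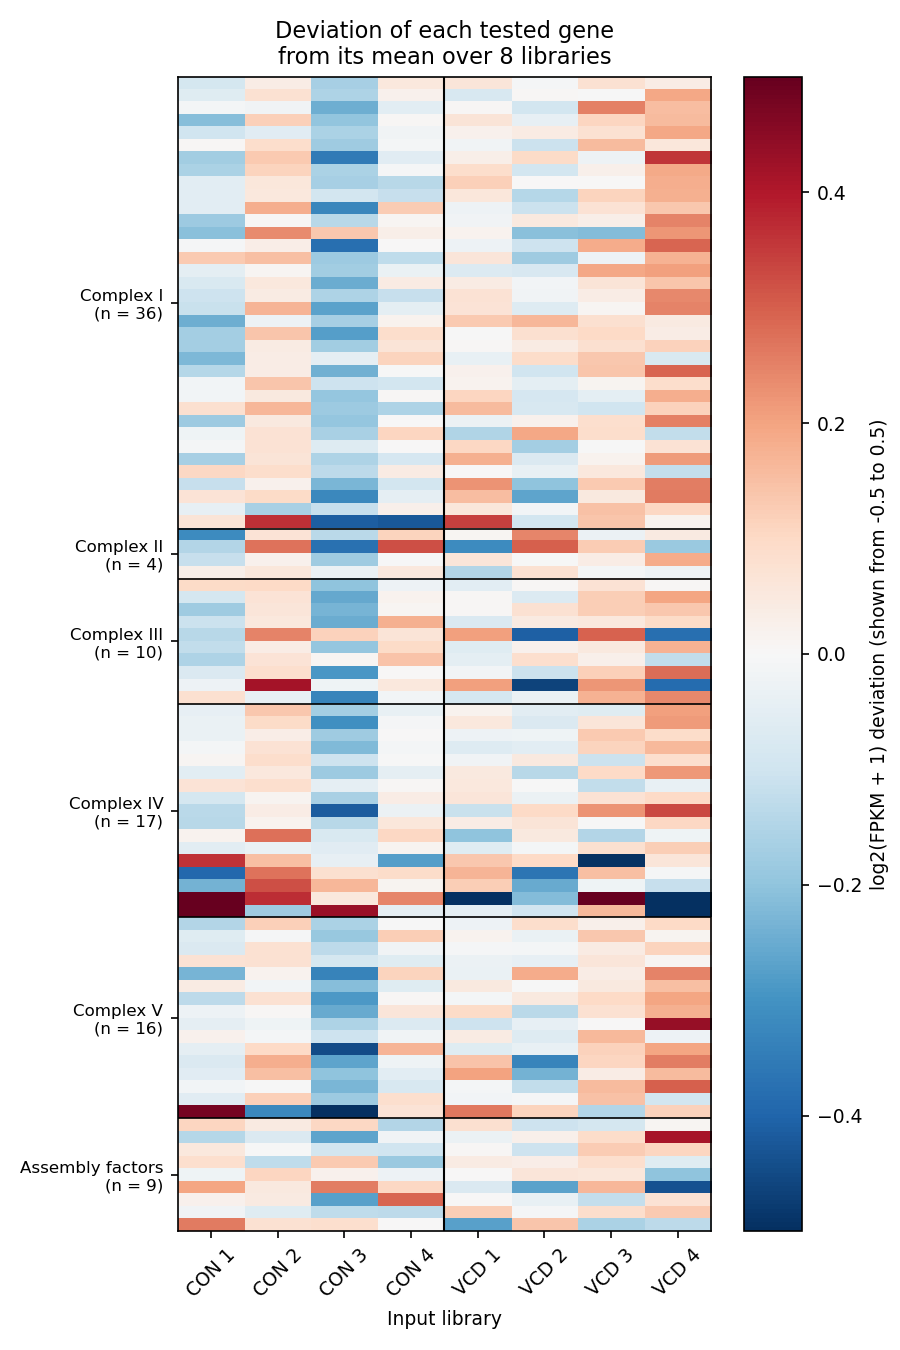
Deviation of log2(FPKM + 1) of each of the 92 tested rows (lines, grouped by complex and ordered by level) from its mean over the 8 input libraries (columns). CON 3 is the most evenly blue column, with a median of -0.17, and VCD 4 is red in most rows of complexes I, IV and V, with a median of 0.12 over all rows.

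Summed FPKM ran from CON 3 to VCD 4 in complexes I, IV and V and over all rows. All 95 rows summed to 10542, 11656, 9730 and 11168 FPKM in CON 1 to CON 4 and to 11085, 10966, 11512 and 12061 in VCD 1 to VCD 4. CON 3 had the lowest sum and VCD 4 the highest, and the groups overlapped. The mean sum was 10774 ± 832 in CON and 11406 ± 495 in VCD (SD, 4 libraries each), a ratio of 1.06. Complex I summed to 2761 ± 207 FPKM in CON and 2971 ± 170 in VCD. The other sums ran differently. Complex II was lowest in CON 3 (565 FPKM) and highest in VCD 2 (753), and complex III was lowest in CON 3 (1090.3 FPKM) and highest in VCD 3 (1324). The assembly factors were lowest in CON 4 (205.5 FPKM) and highest in CON 1 (233).

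Markers of other cells moved between the libraries as well. In bulk tissue fewer cells of a type and less RNA per cell cannot be told apart. The steroidogenic and luteal markers, cells rich in mitochondria, summed to 7168, 10538, 7678 and 13300 FPKM in CON 1 to CON 4 and to 10911, 13865, 14334 and 11928 in VCD 1 to VCD 4. CON 1 and CON 3 had the lowest sums, as they had for the oxidative phosphorylation genes, but VCD 4 did not have the highest. All 10 tested genes of that list were higher in value in VCD, with a median of 0.36 and 0 called (2 at an unadjusted p under 0.05). For the counts here and below, 0.447% of all tested genes were called with limma. An unadjusted p under 0.05 was found for 18.7% of them, 4.12% higher and 14.6% lower. Oocyte markers summed to 36.2 to 56.6 FPKM in CON and 7.53 to 11.7 in VCD without overlap, and 7 of their 9 tested genes were called with limma, all lower. Smooth muscle markers were higher in value in VCD for 8 of 8 genes and endothelial markers for 7 of 7, with 0 called in either list (0 and 4 at an unadjusted p under 0.05). Of stroma markers 6 of 7 were lower in value and of macrophage markers 7 of 8, again with 0 called (3 and 0 at an unadjusted p under 0.05). Of 10 granulosa markers 5 were higher and 5 lower in value, with a median of 0.01. Among them 1 was called, Amh, lower in VCD (4 at an unadjusted p under 0.05, 1 higher and 3 lower). The part of these cells in the levels of the oxidative phosphorylation genes was not tested.

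Of single genes, Ndufa10l1 on chromosome 9 had the smallest p. By symbol it is a form of an accessory subunit of complex I. It had 59.7, 69.7, 63.1 and 71.8 FPKM in CON 1 to CON 4 and 77.8, 79.8, 75.1 and 73.3 in VCD 1 to VCD 4. All VCD values lay above all CON values. The log2 change was 0.21 ± 0.08 (SE), and the adjusted p from limma was 0.192. The authors' deposited table gives a p-value of 0.00385 for it.

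Ndufa13, an accessory subunit of complex I also known as GRIM-19, had 110, 113, 105 and 116 FPKM in CON and 119, 121, 124 and 135 in VCD. Its groups did not overlap, and its log2 change was 0.17 ± 0.07 with an adjusted p of 0.247 from limma. Ndufaf7, a methyltransferase that acts in complex I assembly, was the other row without overlap, at 4.46 to 4.89 FPKM in CON and 4.95 to 5.53 in VCD. These 3 of 92 rows compare with 11.9% of all tested genes whose groups did not overlap, and with 2.27% that were higher in VCD.

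Cox5a, a complex IV subunit, had the largest positive difference of the 92 rows. It had 120, 135, 98.5 and 129 FPKM in CON 1 to CON 4 and 122, 141, 154 and 166 in VCD 1 to VCD 4, and the groups overlapped. Its log2 change was 0.27 ± 0.13 with an adjusted p of 0.281 from limma. The largest differences upward in the other complexes were 0.23 for Ndufa7, 0.22 for Atp5mg, 0.17 for Uqcrfs1 and 0.14 for Sdhc, none of them called.

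Cox8b had the largest difference downward of the 92 rows. It had 8.71, 6.57, 5.07 and 5.93 FPKM in CON 1 to CON 4 and 2.03, 4.04, 7.29 and 2.52 in VCD 1 to VCD 4. VCD 3 was above 3 of the 4 CON libraries, and the other 3 VCD libraries lay below all of CON. The log2 change was -0.70 ± 0.29 (SE) and the adjusted p 0.244 from limma, and without VCD 3 the adjusted p was 0.068. Cox8b also marks brown fat. The brown adipocyte markers, Cox8b included, summed to 12.9 to 17.9 FPKM in CON and 9.24 to 13.5 in VCD. Cox8b makes up a large part of these sums, so they are no separate measure of brown fat. The sums are over the 6 genes of 7 that were analysed here, with 3 above the filter and Elovl3 listed at 0 in 6 of 8 libraries. Cidea, another marker of that list, had 5.99 to 9.89 FPKM in CON and 3.67 to 8.50 in VCD, and the white adipocyte markers were highest in CON 1, at 272 FPKM against 50.2 to 84.1 in the other 7 libraries. Fabp4 alone gave 249 FPKM of the sum in CON 1, against 22.9 to 52.7 in the other libraries, while Adipoq had 0.269 to 2.22 FPKM and was not highest there. Cfd of that list was called higher in VCD (21.4 ± 0.741 FPKM in CON and 28.2 ± 0.921 in VCD, SD over 4 libraries each, adjusted p = 0.0429 from limma). Striated muscle markers summed to 3.35 to 9.56 FPKM in CON and 6.98 to 11.4 in VCD, with 2 of 4 tested genes higher in value and 0 called. The part of all these markers in the level of Cox8b was not tested.

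Among the assembly factors, differences went both ways. Ndufaf4, an assembly factor of complex I, had 7.04, 6.25, 7.37 and 6.53 FPKM in CON 1 to CON 4 and 5.67, 4.83, 6.86 and 4.19 in VCD 1 to VCD 4, with an adjusted p of 0.251 from limma. Ndufaf8, another assembly factor, went the other way, with 19.4, 20.5, 17.8 and 21.2 FPKM in CON and 21.1, 22.0, 23.0 and 28.9 in VCD and the same adjusted p of 0.251 from limma. In both genes the groups overlapped through 1 library of VCD. Ndufa1, Sdhd, Uqcrb on chromosome 7 and Atp5mc2 had the lowest log2 changes of complexes I, II, III and V, at -0.10, -0.05, -0.21 and -0.00045, and none was called. Cox7a2l, which joins complexes III and IV into supercomplexes, had 148 ± 11.9 FPKM in CON and 142 ± 8.63 in VCD.

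The tissue isoforms of complex IV were compared with their common counterparts as a percentage in each library. Cox8b was 4.31%, 3.01%, 2.74% and 2.92% of Cox8a in CON 1 to CON 4 and 0.936%, 2.12%, 3.24% and 1.03% in VCD 1 to VCD 4. The ratio was lower in VCD 1, VCD 2 and VCD 4 than in any CON library, and VCD 3 lay within CON. Ndufa4l2 was 7.23% ± 1.20 of Ndufa4 in CON and 6.06% ± 0.850 in VCD. Cox6b2 was 5.03% ± 1.00 of Cox6b1 on chromosome 1 in CON and 4.44% ± 1.06 in VCD. Cox4i2 was 1.92% ± 0.363 of Cox4i1 in CON and 1.81% ± 0.353 in VCD, and Cox6a2 was 0.413% ± 0.188 of Cox6a1 and 0.241% ± 0.120 (all SD, n = 4). The groups overlapped for all 5 pairs and for Cox8c against Cox8a. The counterpart of Cox7a1 was not analysed here.

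**Figure D4:**
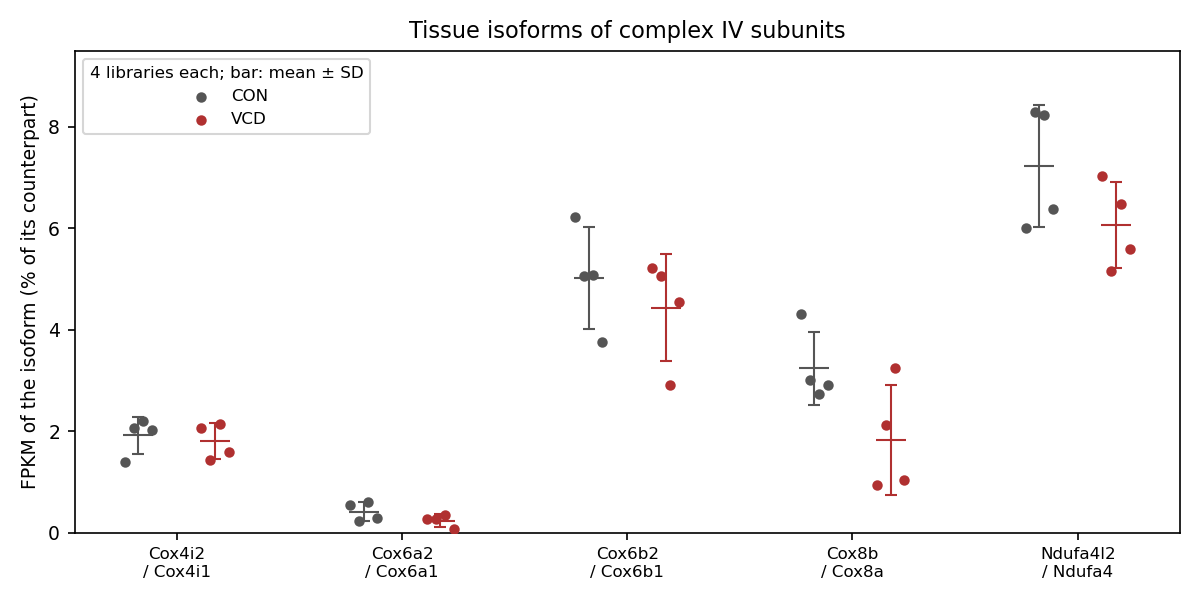
FPKM of 5 tissue-restricted complex IV isoforms as a percentage of the common form in the same library, for 4 CON and 4 VCD libraries, with mean and SD. The groups overlap for every pair, and the VCD libraries of Cox8b spread from 0.936% to 3.24%.

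Related pathways gave a mixed picture. Of 12 tested regulators of these genes 9 were lower in value, with a median of -0.13 and 0 called with limma. At an unadjusted p under 0.05 there were 4, all lower, against 14.6% of all tested genes. The 4 were Gabpa (-0.39), Pprc1 (-0.29), Yy1 (-0.27) and Tfam (-0.19), which code for an ETS factor, a coactivator, a zinc finger factor and the packaging protein of mitochondrial DNA, and Nrf1 was at -0.16. In 4 of the 12 all VCD values lay below all CON values, as in 9.58% of all tested genes. Of 34 assembly genes outside the symbol rule 16 were higher in value, with a median of -0.01 and 0 called (4 at an unadjusted p under 0.05). The tricarboxylic acid cycle had 10 of 16 genes higher (median 0.06), glycolysis 10 of 14 (0.10), mitochondrial beta-oxidation 8 of 12 (0.15), mitochondrial antioxidants 7 of 9 (0.19) and electron carriers and shuttles 1 of 9 (-0.12). None of the genes in these 5 lists was called with limma, and 3, 1, 1, 1 and 1 of them had an unadjusted p under 0.05. Of all tested genes 0.447% were called and 18.7% had such a p-value.

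In the m6A peak lists a smaller share of the oxidative phosphorylation genes than of other genes had a peak. The authors gave 1 list per group, so these shares have no replicate error. Of the 95 rows 55 had at least 1 peak in the CON list and 60 in the VCD list, 54 had one in both, and 34 had none in either. Of the 92 rows at 0.5 FPKM or more this was 55 (59.8%) in CON and 59 (64.1%) in VCD, and of all protein-coding genes at that level 83.3% and 82.6% had a peak. Peaks were rarer at high FPKM in other genes too, so shares were compared within bands of a factor of 2 in FPKM, weighted by the number of oxidative phosphorylation genes in each. The other genes then had a peak in 75.4% of cases in CON and 75.02% in VCD. In bands of both FPKM and genomic span the other genes had 74.7% and 74.3%. Genomic span includes introns and is not the length of the mRNA, and genes of like mRNA length were not compared. The exact 95% binomial interval of the share of the 92 rows, which treats genes as independent and covers counting error only, ran from 49.0% to 69.9% in CON and from 53.5% to 73.9% in VCD. No test was made of the difference.

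**Figure D5:**
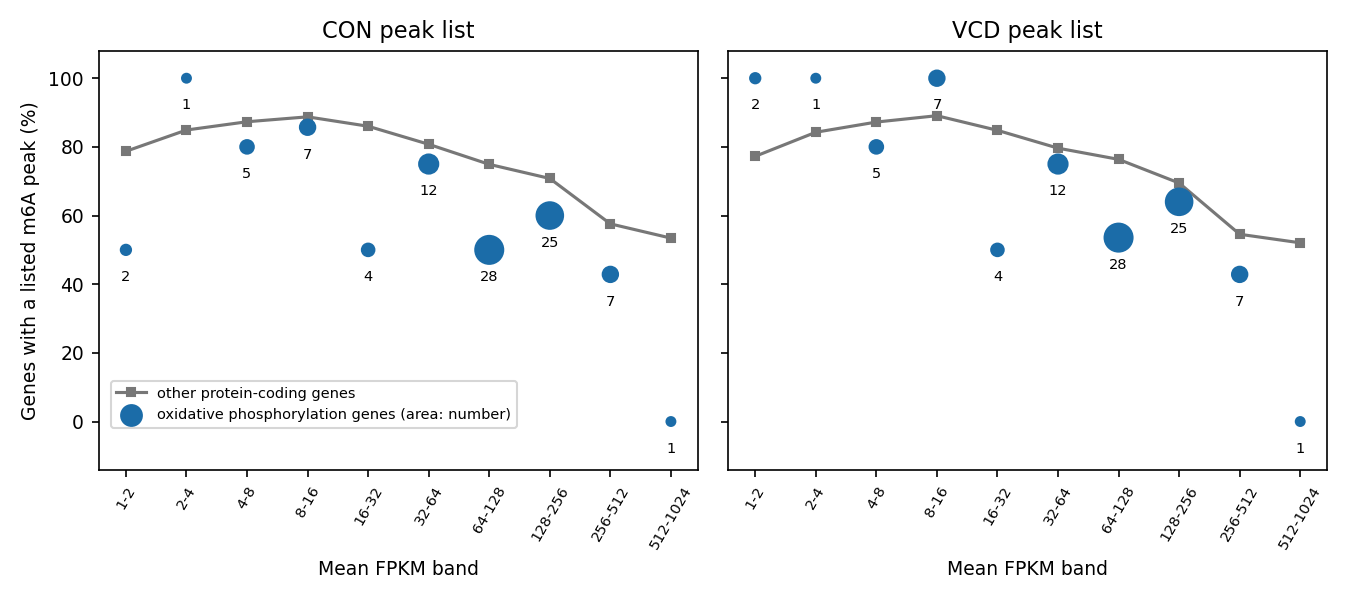
Share of genes with a listed m6A peak by band of mean FPKM, for oxidative phosphorylation genes (blue, area and label give their number) and other protein-coding genes (grey), in the CON and the VCD list. In the band of 64 to 128 FPKM 14 of 28 oxidative phosphorylation genes had a peak in CON and 15 in VCD, against 74.9% and 76.4% of the others.

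Most of the genes lay in a pair of bands. From 64 to 128 FPKM 50.0% of 28 rows had a peak in CON against 74.9% of 550 other genes. From 128 to 256 FPKM it was 60.0% of 25 rows against 70.8%, and from 256 to 512 FPKM 3 of 7 rows against 57.6%. From 8 to 16 FPKM the shares were close, 6 of 7 rows against 88.7%. By complex, 22 of 37 rows of complex I, 1 of 4 of complex II, 5 of 10 of complex III, 10 of 19 of complex IV and 10 of 16 of complex V had a peak in CON, and 7 of 9 assembly factors. Genes with no peak in either list included the most abundant of several complexes: Atp5f1b, Atp5f1a, Cox4i1, Sdha and Ndufb4. In complex II only Sdhb had a peak. Atp5f1d, the delta subunit of the F1 head, had a peak in CON alone, and Ndufa2, Ndufa10l1 on chromosome 6, Uqcrq, Cox6a2, Atp5me and Ndufaf3 in VCD alone. Of the 13 mitochondrially coded genes 9 were listed with a peak in each list.

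The peaks of these genes were mostly annotated to stop codons and mostly single. Several of them spanned a whole row, however. In Atp5if1, Cox8b and Uqcrb on chromosome 1 the peak and the row had the same ends, and in Ndufb9 and Cox6a1 nearly so. For such genes the label does not place the signal within the gene, and no further peak could be listed. How often this held in other genes was not compared. In CON 34 of 65 peaks (52.3%) were annotated by the authors to the stop codon, against 33.4% of peaks in other genes at 20 FPKM or more. Start codons held 20% against 19.2%, internal coding exons 9.23% against 20.1%, and the 3′ UTR 15.4% against 23.7%. In VCD the stop codon held 36 of 71 peaks (50.7%). Of the 55 genes with a peak in CON 47 had 1 only, and the mean was 1.18 peaks each, against 1.62 in other genes at 20 FPKM or more. The enrichment is the authors' log2 ratio of immunoprecipitated to input signal. The highest enrichment of each gene had a median of 2.1 in CON and 2.06 in VCD, and 2.35 and 2.41 in the other genes at 20 FPKM or more. Of 55 genes 36 lay below the median of other genes of their FPKM band in CON, and 40 of 59 in VCD.

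The highest enrichment, 4.44 in CON and 4.45 in VCD, was that of the uncertain Atp5f1c. Ndufv3 on chromosome 20, a flavoprotein subunit of complex I, and Ndufaf2, an assembly factor of that complex, each had 3.78 in CON and 3.80 in VCD. Uqcrb on chromosome 1 had 3.75 and 3.77. The peak of Cox6a1 was annotated to the stop codon but spanned nearly its whole row (chr12:47024492-47027495 in the files' coordinates, introns included). Its enrichment was 3.15 in CON and 3.23 in VCD. The peak of Ndufb9, an accessory subunit of complex I, had the same annotation and a like span (chr7:98813040-98819448), with 3.26 and 3.35. Atp5if1 had 3.45 and 3.40. Cox6a1 was the most abundant gene with a peak in both lists, followed by Atp5mf, Cox6b1 on chromosome 1, Atp5f1e, Sdhb, Cox5b, Uqcrh and Cox6c. Sdhb had 1.55 at its stop codon in CON and 1.57 in VCD, and a second peak in a coding exon in VCD alone. Tissue isoforms with low FPKM carried peaks as well: Cox8b had 3.07 and 3.28, and Cox4i2 2.81 and 2.74. Genome sequence of the build used for the peaks was not used here, so no peak sequence is shown.

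The authors' deposited table of differential peaks compares enrichment between VCD and CON. It holds 19 peaks in 17 of the 61 rows that had a peak in either list (27.9%), and 35.2% of all protein-coding genes with a peak have one there. Enrichment was higher in VCD at 17 of the 19 peaks, and at 83.3% of the peaks of other genes in that table. The authors' deposited table gives an adjusted p under 0.05 to 15 of the 19 peaks and to 49.8% of all peaks of protein-coding genes in it. It marks 1 of the 19 as significant, in Cox6a2, and 7.25% of all those peaks. The peak of Cox6a2 at the stop codon (chr1:199624087-199624683) had a log2 enrichment of 1.18 in CON and 2.35 in VCD, a difference of 1.17 with an adjusted p of 0.0337 in the authors' deposited table. Cox6a2 had 2.38, 1.05, 2.13 and 1.25 FPKM in CON and 1.25, 1.17, 1.60 and 0.351 in VCD, so this peak rests on a gene of low level. The smallest adjusted p in the authors' deposited table was 1.52e-16, for the stop codon peak of Uqcrb on chromosome 7, with a difference of 0.38. That is the row whose FPKM was lowest in VCD 2 and VCD 4.

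The other 17 peaks in the authors' deposited table differed by -0.57 to 0.51. The lowest lay in Atp5f1c and the highest in the 5′ UTR of Atp5pd, a stalk subunit of ATP synthase. Ndufa12 (0.35), Uqcrc2 (0.29), the second peak of Atp5f1c (0.26), Ndufb2 (0.21) and Atp5f1e (0.21) were next, and Ndufa7, Ndufb7, Ndufb9, Ndufaf1, Cox6a1, Cox6b1 on chromosome 1, Cox7c, Atp5mf and the second peak of Atp5pd lay between 0.09 and 0.16. The peak of Cox7a2l was lower in VCD, with a difference of -0.11. Over the 54 genes with a peak in both lists the highest enrichment was higher in VCD for 42 (77.8%) with a median difference of 0.09, and for other protein-coding genes it was 72.7% and 0.08.

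RNA differences were set beside the presence of a peak, with no test. The 54 tested rows with a peak in both lists had a median log2 change of 0.08 and 39 were higher in value. The 32 tested rows with a peak in neither had a median of 0.10 and 28 were higher. Their median levels were 88.1 and 117 FPKM.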

How the data were processed

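Input and m6A immunoprecipitation libraries of ovaries from 4 CON and 4 VCD rats were made from poly(A) RNA with a strand-marking protocol, per the labels' protocols. The deposited gene table holds FPKM of the 8 input libraries and, from the authors' own comparison, a fold ratio of group means, its log2 value, p-values and q-values, per the file headers. The peak lists deposited by the authors hold 1 list per group, with a log2 enrichment and p-values, and a table of differential peaks holds the difference, per the file headers. Each list was taken as pooled over the libraries of its group, which the headers do not state. Tools named without roles in the submitters' processing notes were HISAT2 2.0.4, StringTie 2.1.2, fastp 0.19.4, HOMER 4.10 and edgeR 4.1. The notes name a human build, which cannot be that of rat identifiers, so the build is unknown, as is the peak caller. Coordinates are the files' own, with 1 added to peak starts. FPKM keep no read totals, so depth is unknown.

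Genes averaging 0.5 FPKM or more were compared with limma 3.58.1 in R 4.3.3 (linear fit, moderated with a trend on level) after adding 1 to FPKM and taking log2, with treatment as the only term and Benjamini-Hochberg adjustment. This scale understates changes of low genes. The procedure was checked on artificial data with independent values and changes of 1 and 2 on the log2 scale. Of 100 genes changed by each size it recovered 85 and 97, and 10 of its 192 calls were false. Changes as small as those of the rows here, -0.70 to 0.27, were not part of this check. The labels' batch number is shared by 1 CON and 1 VCD library each, whose deviations from the group means correlated at -0.01, -0.09, 0.01 and -0.07. Gene lists and members were chosen with earlier results of these data known. A rule named the genes: in each complex the highest level and the largest positive and negative change, isoform pairs, the 8 most abundant with a peak in both lists, those in the differential peak table and the 4 smallest p. Ndufaf7, Uqcrb on chromosome 1, the spread of Sdhb, level examples within complexes, the highest enrichments, genes with a peak in 1 list or none, and the single marker genes Cidea, Elovl3, Fabp4, Adipoq and Cfd were picked after their values were seen. Alternatives changed the pseudocount, filter, scaling, moderation, block, libraries and peak threshold. Promoter letters were matched exactly in Python 3.11.15.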

Additional observations from a re-analysis of the deposited data

Results flagged for a closer look

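In groups of 4 libraries, 106 sets of values were searched for 1 library standing far from the other 3, and 5 (4.72%) were found, where chance alone flags about 1 in 20. The mitochondrially coded genes summed to 494 FPKM in CON 1, against 674 to 689 in the other CON libraries. Ndufb7 had 70.9 FPKM in CON 3, against 91.9 to 94.5 in the other 3. CON 3 was the lowest library for 56 of the 77 oxidative phosphorylation rows at 20 FPKM or more, Ndufb7 included. Uqcrb on chromosome 7 had 53.4 FPKM in CON 2, against 39.1 to 41.3. Cox6b2 had 8.17 FPKM in VCD 3, against 12.4 to 13.2. Cox8c had 0.0964 FPKM in VCD 2 and was listed at 0 in the other VCD libraries.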

How the results depend on the processing

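No row was called under any alternative of the expression test, the replicate block included, which left the median log2 change at 0.090 and all-gene calls at 31. Scaling the libraries to a common median of tested genes raised the median change over all rows to 0.19, and to 0.22 in complex I, 0.16 in complex IV, 0.20 in complex V and 0.049 in assembly factors, while the median of all tested genes moved from -0.063 to 0.019. Quantile normalization lowered it to 0.062 over all rows, 0.072 in complex I, -0.0099 in complex II, 0.033 in complex III, 0.032 in complex IV and 0.059 in complex V, and raised it to 0.069 in assembly factors, which had 0.0089 without VCD 2 and VCD 4. Leaving out 1 library at a time gave medians of 0.043 to 0.120 over all rows, 0.074 to 0.165 in complex I, -0.0067 to 0.113 in complex II, 0.017 to 0.136 in complex III, -0.0037 to 0.083 in complex IV, 0.034 to 0.153 in complex V and -0.048 to 0.019 in assembly factors, with the positive value without VCD 4. All-gene calls ran from 3 with a filter at 5 FPKM to 115 without VCD 3. Of 730 values of named genes under these settings 44 had the opposite sign, in 15 genes, none of them called. With peaks of log2 enrichment of at least 2 only, 32.6% of rows and 47.5% of other genes of like FPKM had a peak in CON, and 34.8% and 50.3% in VCD. Bands of FPKM and protein length were not run. Bands of genomic span and leaving out rows under 500 bases were chosen after seeing the data, and without those rows 59.1% had a peak in CON, against 76.7% of other genes.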
